A study of Mus musculus with 6 samples.

Results

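Transcripts of 5 genes of the protein synthesis machinery were followed in mouse testis: the elongation factor subunit Eef1g, the ribosome assembly factor Tbl3, the ribosomal protein genes Rpl10a and Rpl41, and Rps4l, an intronless copy of a ribosomal protein gene. They were taken by name from a deposited table of transcripts called different between diets, together with every other transcript of the same 5 loci, which gave 6 of the 831 listed transcripts. The testes came from C57BL/6 mice given normal food or high-fat food for 8 weeks, with 3 RNA-seq libraries per diet, numbered 7 to 9 (normal) and 10 to 12 (high-fat); the age of the mice is not given in the sources used here. No genetic change or further agent is given in the labels, and whether a library stands for 1 animal is not stated there, so the spread between libraries may be partly technical. The members were chosen by measured values of the contrast described below: in the authors' deposited table the adjusted p of each was below 0.05, from 3.64e-11 for Rpl41 to 0.0372 for Rpl10a, the member closest to the threshold. Their values are therefore given as a description, without a test, and transcripts outside the threshold were not analysed here.

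Ribosomes are assembled in the nucleolus from ribosomal RNA and many small basic proteins, and the small subunit is folded there inside a large particle called the small subunit processome. Finished ribosomes then decode mRNA with the help of elongation factors, which deliver each aminoacyl-tRNA and move the ribosome along. In the testis, spermatocytes and round spermatids make and store many mRNAs for later translation, and several ribosomal protein genes have intronless copies that are active in male germ cells.

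Library 7 had the smallest total of listed counts, 362790, and library 12 the largest, 490603, and the depth of whole libraries is not given. Counts were divided by the authors' size factor of each library to give normalized counts. In the authors' deposited table, 0.868% of the 95751 transcripts tested passed the threshold, 0.48% as higher after high-fat food and 0.387% as lower. Of the 6 transcripts, 2 were listed as higher and 4 as lower. The diets did not overlap in any of the 6, and they did not overlap in 91.3% of all listed transcripts either. Since listing required a difference, nothing is read from these shares. The size of the log2 ratio of the diet means had a median of 3.91 over the 6 transcripts and of 3.90 over all listed ones, with a diet at 0 set to a floor of 3 counts per library. Of the 32 marker genes of testis, blood, epididymal and fat cells that were looked up, 0 had a listed annotated transcript, and 1 assembled transcript overlapped Piwil1, a spermatocyte gene. The table leaves out transcripts that were not called, so the cell makeup of the samples was not analysed here, and fewer cells of a type cannot be told apart from less RNA per cell.

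**Figure D1:**
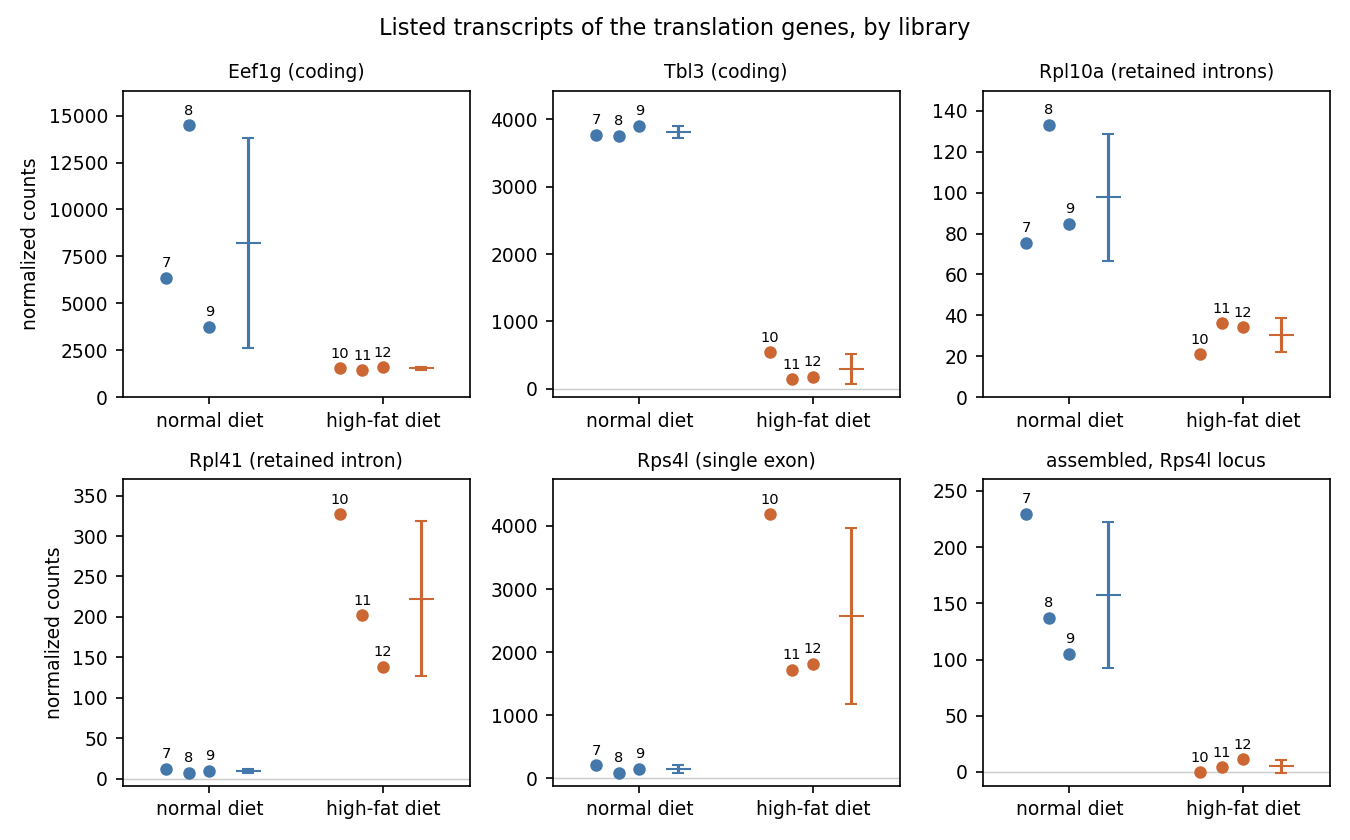
Normalized counts of the 6 listed transcripts in each library, with numbered points for libraries, a bar for the mean and whiskers for the SD (n = 3 per diet). Eef1g, Tbl3, Rpl10a and the assembled transcript were lower on the high-fat diet, Rpl41 and Rps4l were higher, and the points of the diets do not overlap in any panel.

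Eef1g encodes the gamma subunit of the complex that recharges elongation factor 1 alpha with GTP, and its listed transcript is the canonical coding one, ENSMUST00000052248, with 10 exons on chromosome 19 (chr19:8967041-8978479, GRCm38, plus strand). It had 6362, 14474 and 3764 normalized counts in normal-diet libraries 7, 8 and 9, and 1557, 1437 and 1596 in high-fat libraries 10, 11 and 12. The normal-diet libraries were spread over a 3.85-fold range with library 8 far above the others, whereas the high-fat libraries lay within 1.11-fold of each other. The means of the diets were 8200 ± 5586 (SD, n = 3) for normal and 1530 ± 82.9 for high-fat food, and the log2 fold change from edgeR was -2.42 ± 0.51 (SE). Without library 8 the log2 fold change was -1.73, and the 5.36-fold difference became 3.31-fold. The lowest normal-diet library still lay 2.36-fold above the highest high-fat library. Eef1g was the most abundant of the 6, at place 13 of 831 by its mean over all libraries.

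Tbl3 encodes a WD-repeat protein of the small subunit processome, the particle in which the small ribosomal subunit is cut and folded from its precursor. The listed transcript was again the canonical coding one, ENSMUST00000126319, with 22 exons on chromosome 17 (chr17:24697949-24707660, minus strand). It was at 3771, 3756 and 3906 normalized counts in libraries 7, 8 and 9 and at 544, 145 and 178 in libraries 10, 11 and 12. Here the spread was the reverse of that of Eef1g: the normal-diet libraries were nearly equal, with a coefficient of variation of 2.17% against 68.1% for Eef1g, and the high-fat libraries were uneven, at 76.5% against 5.42%. Over all listed transcripts with a mean of at least 50 in the diet, the median coefficient of variation was 40.3% on the normal and 46.6% on the high-fat diet. For Tbl3 the diet means were 3811 ± 82.8 and 289 ± 221, with an edgeR log2 fold change of -3.72 ± 0.60 (SE). High-fat library 10 was the highest of its diet; without it the log2 fold change was -4.56 and the 13.2-fold difference became 23.5-fold. The last exon of Tbl3 overlaps Noxo1 on the opposite strand over 2581 bases. The libraries were made strand-specific, but the strand setting of the counting is not given in the sources used here. No transcript of Noxo1 was listed.

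Levels of different transcripts were compared as normalized counts per kilobase of transcript. After normal food the order was Eef1g at 4399 ± 2997, Tbl3 at 729 ± 15.8, then the assembled transcript of the Rps4l locus at 102 ± 42.1, Rpl10a at 81.3 ± 25.8 and Rps4l at 74.7 ± 29.5, which lay within 1 SD of each other, and last Rpl41 at 12.1 ± 3.06. After high-fat food Rps4l came first at 1285 ± 698, above Eef1g at 821 ± 44.5 by less than its own SD, and Rpl41 followed at 265 ± 114. Below them were Tbl3 at 55.3 ± 42.3 and, lower by less than the SD of Tbl3, Rpl10a at 25.3 ± 6.87, and the assembled transcript at 3.34 ± 3.77. Eef1g and Tbl3 were the only members whose canonical transcript was listed, and both were lower. Among all 114 listed canonical transcripts, 45 were lower and 69 higher.

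Rpl10a encodes a large subunit protein that sits near the site where spent tRNA leaves the ribosome. The gene has 16 transcripts in GENCODE M21, of which 5 are coding, 7 retain an intron and 2 are predicted targets of nonsense-mediated decay, and the table lists 1 of them. It is ENSMUST00000232770 (chr17:28328616-28331033, plus strand), which keeps introns 1 and 3 of the coding transcript ENSMUST00000042334 and begins 2 bases past its coding start, so it lacks the start codon. The retained introns are 192 and 326 bases long, and introns 2, 4 and 5 are spliced out. Intron 1 begins at base 28328619, so almost no exon sequence of the listed transcript precedes it. Both edges of intron 1 and the far edge of intron 3, read from the GENCODE transcript, are shown to mark where unspliced sequence enters this RNA, with the first or last 2 intron bases in capitals.
Rpl10a intron 1 start (chr17:28328616-28328633): gagGTaagttgttatcgt
Rpl10a intron 1 end (chr17:28328796-28328825): gcttctccccaacAGcagcaaagtctcacg
Rpl10a intron 3 end (chr17:28329359-28329388): ccctcccaaacgcAGgctcaagtccacccc

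The transcript with these introns was at 75.5, 133 and 84.8 normalized counts in libraries 7, 8 and 9 and at 20.9, 36.0 and 34.3 in libraries 10, 11 and 12. Library 8 was the highest of the normal diet, as it was for Eef1g, and library 10 the lowest of the high-fat diet. Its means were 97.8 ± 31.0 and 30.4 ± 8.26 (SD, n = 3), a log2 fold change of -1.68 ± 0.41 (SE, edgeR), the smallest in size of the 6. The coding transcripts of Rpl10a were not listed and their level was not analysed here. The listed transcript shares exon sequence with the coding transcript ENSMUST00000042334, and its counts are estimates. How reads were divided between both is not given in the sources used here, so the counts are not those of intron sequence alone.

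Rpl41 encodes one of the smallest and most basic proteins of the large subunit. The listed transcript is ENSMUST00000176184 on chromosome 10 (chr10:128548121-128549305, minus strand), 1 of 7 transcripts of the gene in GENCODE M21, of which 4 are coding and 3 retain an intron. It keeps intron 2, of 268 bases, which follows codon 4. Reading from the start codon, the spliced transcript ENSMUST00000176683 has 25 codons before its stop. The listed transcript reaches a stop inside the intron after 8 codons. Both reading frames are printed to show what the retained intron does to the open frame, with the start and the first in-frame stop codon in capitals.
Rpl41 spliced (exons within chr10:128548387-128548960): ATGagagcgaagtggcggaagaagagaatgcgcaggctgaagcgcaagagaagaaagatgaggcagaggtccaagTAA
Rpl41 retained (chr10:128548934-128548960): ATGagagcgaaggtgagcggctctTAG
The far edge of the intron, with its last 2 bases in capitals, was
Rpl41 intron 2 end (chr10:128548666-128548695): atcgggtttttttAGtggcggaagaagaga

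This transcript was at 12.8, 7.61 and 10.1 normalized counts in libraries 7, 8 and 9 and at 327, 202 and 139 in libraries 10, 11 and 12. All normal-diet libraries held 8 to 12 counts, and library 10 was the highest of the high-fat diet. The diet means were 10.2 ± 2.57 and 223 ± 95.8, a 21.9-fold difference, and edgeR gave a log2 fold change of 4.44 ± 0.51 (SE). The authors' model of it begins 146 bases upstream of the annotated transcript, so the counts cover a longer first exon than GENCODE gives. The coding Rpl41 transcripts were not listed. As for Rpl10a, the listed transcript shares exon sequence with the spliced coding one, and the division of reads between both is not given. Rpl10a and Rpl41 thus had intron-retaining transcripts listed in opposite directions, in a table where 15 of 47 such transcripts were higher and 32 lower.

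**Figure D2:**
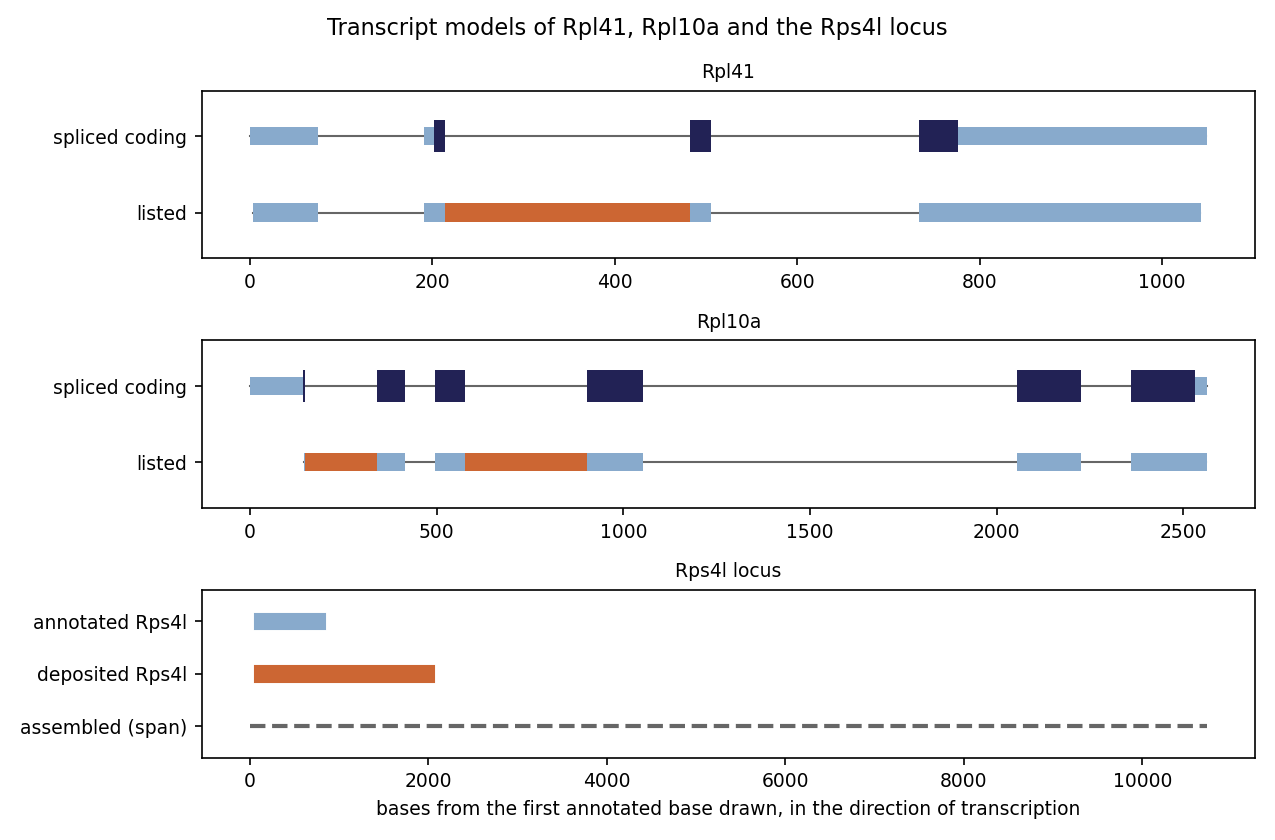
Transcript models of GENCODE M21 drawn by distance in bases in the direction of transcription, with exons as light boxes, coding parts of the spliced transcripts as dark boxes and retained introns of the listed transcripts in orange. The listed Rpl41 transcript keeps 1 intron and that of Rpl10a keeps 2; for the Rps4l locus the annotated exon, the longer deposited model (orange) and the span of the assembled transcript, whose exon positions are not in the table, are drawn.

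Rps4l is a processed copy of Rps4x, the X-linked gene of small subunit protein S4, and is annotated as a transcribed processed pseudogene on chromosome 6. The listed transcript ENSMUST00000204242 has 1 exon. Its annotated 789 bases (chr6:148354710-148355498, plus strand) form an open reading frame of 262 codons and a stop, against 263 codons in Rps4x. Over the aligned 789 bases, 632 were identical (80.1%). Of the 157 differences, 127 lay at the third base of a codon, 23 at the first and 7 at the second. The GC content was 61.3% in Rps4l and 47.6% in the Rps4x coding sequence. The first 120 coding bases and the ends are printed from the GENCODE transcripts to show how far the copies can be told apart. Capitals mark the bases that differ in the first pair and, in the last line, the codon that Rps4l lacks.
Rps4l first bases (chr6:148354710-148354829): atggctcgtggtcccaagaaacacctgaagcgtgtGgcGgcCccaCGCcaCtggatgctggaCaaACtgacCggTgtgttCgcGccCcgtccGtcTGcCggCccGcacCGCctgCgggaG
Rps4x first bases (exons within chrX:102187964-102189300, minus strand): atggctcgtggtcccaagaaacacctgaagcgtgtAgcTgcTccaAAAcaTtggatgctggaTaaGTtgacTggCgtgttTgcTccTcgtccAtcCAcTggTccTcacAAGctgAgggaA
Rps4l last bases (chr6:148355469-148355498): aagaggctggcggccaagcagagcgggtga
Rps4x last bases (chrX:102185030-102185062, minus strand): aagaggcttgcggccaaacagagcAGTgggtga

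The Rps4l transcript was at 206, 88.5 and 154 normalized counts in libraries 7, 8 and 9 and at 4187, 1720 and 1814 in libraries 10, 11 and 12. Library 10 stood above the other high-fat libraries, as it did for Rpl41 and Tbl3. Its diet means were 150 ± 59.0 and 2574 ± 1398, with a log2 fold change of 4.10 ± 0.57 (SE) from edgeR, and the lowest high-fat library lay 8.34-fold above the highest normal-diet library. The authors' model of this exon runs to base 148356712, which is 1214 bases past the annotated 3′ end, so the counts are not those of the open reading frame alone. The exon lies inside the gene Tmtc1 on the opposite strand, and no transcript of Tmtc1 was listed.

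A second transcript of the locus was assembled by the authors from their reads. It has 5 exons, starts at the first annotated base of the gene Rps4l, upstream of the single-exon transcript, and runs on past the noncoding gene Gm44020 (chr6:148354656-148365379). It was at 230, 137 and 105 normalized counts in libraries 7, 8 and 9 and at 0, 4.0 and 11.4 in libraries 10, 11 and 12. The means were 157 ± 64.7 and 5.14 ± 5.79 (SD, n = 3), a log2 fold change of -4.86 ± 1.07 (SE, edgeR), which was -6.18 without library 12. Because few counts were left on the high-fat diet, its fold difference ranged from 20.0 to 72.4 when single libraries were left out.

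Both transcripts had similar mean normalized counts on the normal diet, 150 for the single-exon and 157 for the assembled one, with no correction for their different lengths. The single-exon transcript made up 47.3% of their counts in library 7 (exact 95% confidence interval 42.4 to 52.3), 39.2% in library 8 (33.0 to 45.8) and 59.4% in library 9 (53.4 to 65.2). On the high-fat diet its share was 100% in library 10 (99.9 to 100), 99.8% in library 11 (99.4 to 99.9) and 99.4% in library 12 (98.9 to 99.7). These intervals cover counting error only. The counts are estimates, and the span of the assembled transcript covers the single exon on the same strand. How reads were divided between both transcripts is not given in the sources used here, and the share depends on it. The sum of both came to 307 ± 113 and 2579 ± 1394 normalized counts for the diets, and edgeR put its log2 fold change at 3.07 ± 0.52 (SE). Both transcripts were listed for opposite differences, which fixes the direction in which the share moves, so the share is a description only. Transcripts of the locus that were not listed are left out of the sum.

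**Figure D3:**
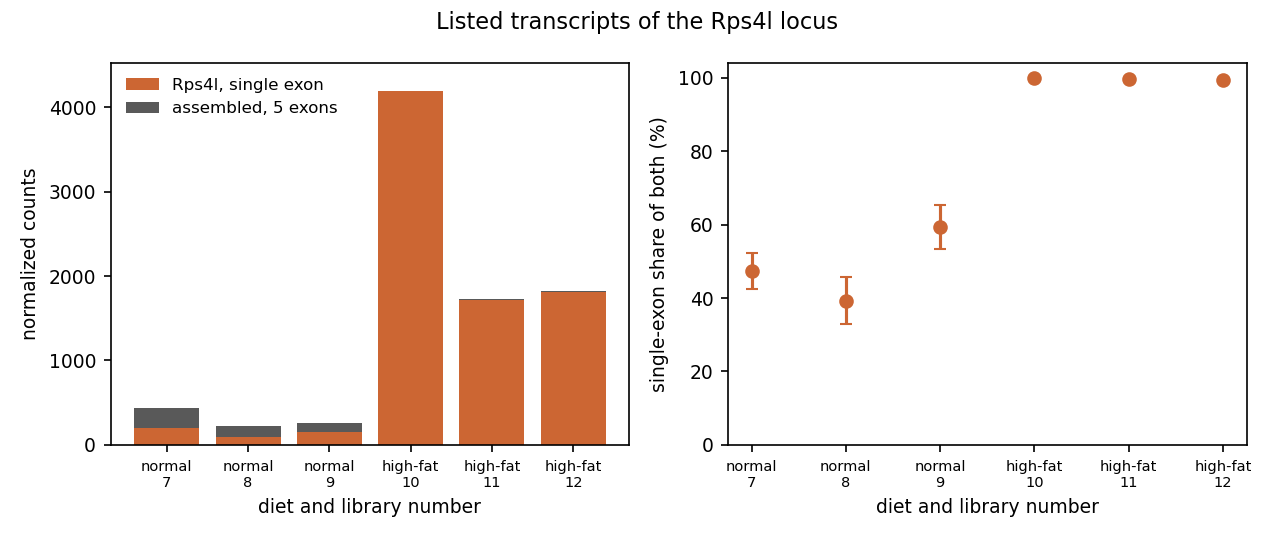
Left, stacked bars of the normalized counts of the single-exon Rps4l transcript and of the assembled 5-exon transcript in each library; right, the single-exon share of the counts of both, with exact 95% binomial intervals. The share was 39.2% to 59.4% in the normal-diet libraries and 99.4% to 100% in the high-fat libraries.

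Ribosomal protein genes have many intronless copies, and reads from such copies can be assigned to more than 1 gene. Of all 50-base windows of the annotated Eef1g transcript, 64.3% were also found in a transcript of another gene, most of them in the processed pseudogene Gm4366. This share was 48.3% for the Rpl10a transcript, matched by Rpl10a-ps1, and 28.5% for that of Rpl41, matched by Gm10076. It was 18% for Rps4l, all of it in the pseudogene Rps4l-ps, and 0 of its 740 windows were shared with Rps4x. Tbl3 shared 0 of 5177 windows. These shares describe sequence over annotated bases and do not measure how uncertain the counts of Eef1g, Rpl10a, Rpl41 and Rps4l are. Windows shared with other transcripts of the same gene were not counted. How reads with several matches were counted is not stated, and its part in the differences was not tested. The windows cover annotated transcripts only, which leaves out 1214 bases of the authors' Rps4l model and 146 of their Rpl41 model. No windows of the assembled transcript were compared. None of Gm4366, Rpl10a-ps1, Gm10076 and Rps4l-ps had a listed transcript.

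**Figure D4:**
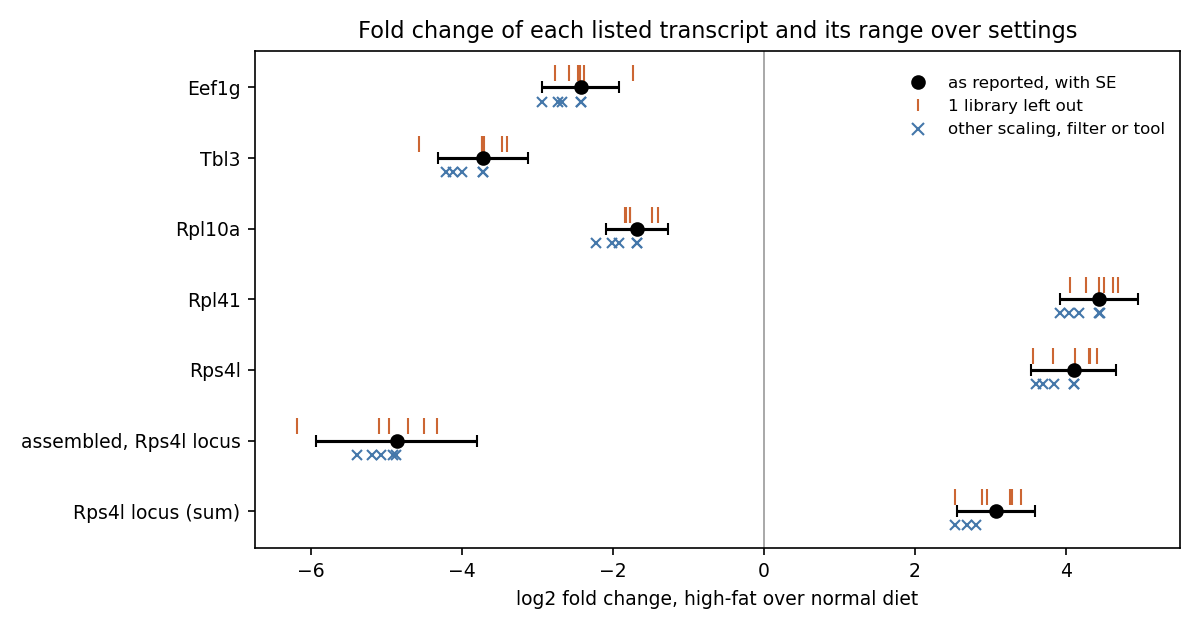
Log2 fold change (high-fat over normal diet) of each listed transcript and of the Rps4l locus sum, as reported with its SE, with 1 library left out and with other scaling, filtering or another tool. Eef1g, Tbl3, Rpl10a and the assembled transcript stay below 0 and Rpl41, Rps4l and the sum stay above 0 in every setting drawn. Because the transcripts were listed for this contrast and the diets do not overlap, the constant sign is no check of the differences.

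The wider machinery was covered by 9 lists of 335 genes for ribosomal proteins and their copies, elongation, initiation, small subunit processome, other ribosome assembly, tRNA synthetases and the mitochondrial ribosome. Of these genes, 11 had a listed annotated transcript, 3 higher and 8 lower, the 5 members included. Over all 433 listed annotated transcripts, of 410 genes, 235 were higher and 198 lower. Of the cytosolic ribosomal protein lists, 2 of 47 large subunit genes (Rpl10a and Rpl41) and 1 of 32 small subunit genes were listed. The share called over all tested transcripts was 0.868%; it counts transcripts, of which a gene can have many, so these counts of genes cannot be set against it and nothing is read from them. For the nearest partners of the members, which are Rps4x, the elongation factor genes Eef1a1, Eef1b2 and Eef1d, and the processome genes Pwp2, Wdr3, Wdr36, Utp6 and Utp18, 0 of 9 had a listed transcript.

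The 6 listed transcripts of other genes were 1 higher and 5 lower, beside the 235 higher and 198 lower over all listed annotated transcripts. The median log2 ratio of the diet means was -1.97 over the 6 and 1.25 over all 433, with a diet at 0 set to the floor. Since each had been called, these medians follow mainly from the counts of signs and show no shift of the group. Only that of Mrpl18, a protein of the mitochondrial large subunit, was canonical, at 533, 429 and 355 counts on the normal and 114, 174 and 214 on the high-fat diet. A non-canonical coding transcript of Hbs1l, with 5 exons, had 34, 143 and 147 counts against 4, 0 and 0. The gene is known for a GTPase that rescues stalled ribosomes, and whether this transcript encodes it was not analysed here. An intron-retaining transcript of Nvl, an ATPase of large subunit assembly, had 32, 29 and 38 counts against 6, 10 and 9. One of Rps3, a small subunit protein at the mRNA entry site, had 9, 35 and 10 counts against 0 in each high-fat library, at least 5.83-fold lower. Noncoding transcripts of Mrpl58 and Mrps6, both of the mitochondrial ribosome, had 14, 16 and 5 counts against 0 and 0 against 14, 7 and 9. Most of these counts are small, and 5 of the 6 transcripts are not annotated as canonical.

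Transcripts assembled over genes of the lists added 7, of which 3 were higher and 4 lower, 1 of them the Rps4l transcript described above. Those over Larp1, which binds mRNAs of ribosomal proteins, and over Abce1, which splits ribosomes after translation, were lower. The one over Abce1 had 589, 966 and 1785 counts on the normal and 84, 94 and 15 on the high-fat diet. Over Larp1 there were 269, 1501 and 978 counts against 0 in each high-fat library, at least 293-fold lower. The transcript over Eif2b3, a subunit of the exchange factor of initiation, had 90, 2 and 97 counts against 0. Those over Farsb, a subunit of phenylalanyl-tRNA synthetase, and over Rpl27a, a large subunit protein, were higher. Over Farsb there were 68, 33 and 54 counts against 443, 511 and 265, and over Rpl27a 0 against 385, 410 and 1084. The transcript over Qars, the glutaminyl-tRNA synthetase gene, was at 0 on the normal diet and in library 10 and at 3234 and 10425 counts in libraries 11 and 12, so the diets overlapped. Those over Eif2b3, Farsb, Rpl27a and Qars overlap more than 1 gene, and their names are uncertain.

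Across the 6 libraries, the listed transcripts most like each member were found by the root mean square difference between centred log2 profiles, with a mean of at least 50 normalized counts and 583 transcripts compared. The nearest to Eef1g was a coding transcript of Sufu (difference 0.37 on the log2 scale), at 936, 1204 and 432 counts on the normal and 109, 134 and 239 on the high-fat diet, followed by Chit1 and a transcript assembled over Cdc37l1. For Tbl3 they were a coding transcript of Sept2 (0.48), whose symbol the table gives as a date number, and transcripts assembled over Nfat5 and over Pex5l with 2 neighbouring genes. Those of Rpl10a were a transcript assembled over Tnrc18 (0.25), one of Aph1b and one assembled over Cdkl2. The processed pseudogene Gm47366 was the nearest to Rpl41 (0.31), with 8, 8 and 14 counts on the normal and 331, 236 and 123 on the high-fat diet, and it was also second for Rps4l (0.51). Lsm10 was second for Rpl41 and last of the 3 for Rps4l, but it was named for neither with a minimum mean of 10, where Gm47366 was still named for both. With the minimum of 50, a transcript assembled where no gene is annotated on its strand was also named for each. It was on chromosome 10 for Rpl41 and on chromosome 1 for Rps4l, and the opposite strand was not looked up. Only the one for Rps4l was named again with the minimum of 10. The one for Rpl41 (chr10:85760342-85761635) lies close to Gm47366 (chr10:85764265-85765762), and whether their profiles are independent was not tested. The nearest to the assembled transcript at the Rps4l locus was the coding transcript of Mycbpap (0.14), then one of Poglut1 and one assembled over Dido1. All of these had been listed for a difference between the same libraries, which by itself makes profiles alike.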

How the data were processed

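Testis RNA was sequenced as strand-specific dUTP libraries, per the labels' protocols. Per the submitters' processing notes, the tools were Trimmomatic, HISAT2, StringTie and DESeq and the build GRCm38, with no version or order named. The deposited table of called transcripts holds estimated counts, whole as deposited. The authors' scaled counts, rounded, were treated as a score and used only to recover each library's size factor, the median of count over scaled count at counts of at least 5000. The authors' log2 fold change and p-value columns were used to count listed transcripts and, from adjusted over unadjusted p and rank, the number tested. The deposited network table holds p-values and q-values per neighbourhood.

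Fold changes and SEs come from edgeR 4.0.16 in R 4.3.3 (glmQLFit, filterByExpr, authors' size factors, fitted to all 831 listed transcripts, 680 after the filter); the SE is the size of the fold change over the square root of F. The spread in the edgeR fit was estimated from called transcripts only, so the SEs carry that selection and may be too small. DESeq2 1.42.0 was an alternative. The edgeR fit was tested on simulated data with known folds. Those data held changed and unchanged transcripts and were not selected by a test, so they do not cover the effect of using called transcripts only. No p-value of these fits is given, because the members were listed for this contrast. The members, gene lists and alternatives were chosen with earlier results of these data known. Every transcript of the member loci, every listed transcript of the gene lists and the 3 nearest profiles per member are named, by rule. Models and sequences are from GENCODE M21 (GRCm38).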

Additional observations from a re-analysis of the deposited data

How the results depend on the processing

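The direction of the 6 fold changes and of the Rps4l locus sum was the same in all 75 alternatives run, and 4 of these moved a value by more than 1 SD between libraries. This direction could hardly have changed, because the members were listed for this contrast and the diets overlapped in none of the 6. The median shifts from scaling given below were also smaller in size than the smallest fold change, -1.68 for Rpl10a. The constant direction is therefore no check of the differences. With 1 library left out, the log2 fold change ranged from -2.77 to -1.73 for Eef1g, the latter without library 8, and from -4.56 to -3.40 for Tbl3, the former without library 10. DESeq2 size factors computed on the listed transcripts gave -2.23 for Rpl10a and 3.92 for Rpl41. Log2 fold changes shifted by a median of -0.522 with those factors (664 transcripts), -0.348 with TMM (672) and -0.239 with scaling to listed totals (672). These medians cover only transcripts that passed the count filter in both fits. With the authors' adjusted p under 0.01, 2 of the 4 lower members stood, Tbl3 and the assembled transcript, and 3 of the 8 lower annotated transcripts of the gene lists. Adding assembled transcripts raised the higher ones of the lists from 3 to 6 and the lower ones from 8 to 12. Of the 18 nearest profiles, 13 were named again with a minimum mean of 10. No paired analysis was possible because the diets share no library number. The depth of whole libraries is not given, and transcripts that were not called were not analysed here.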

Other observations

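In the authors' deposited table of 20 network neighbourhoods, 6 hold a member: Eef1g is in those centred on IL2RG, JAK3 and EGF, Rpl41 in those of CUL9 and KLRG2, and Rps4l in those of CUL9 and of the human kinase SIK3. Rpl10a and Tbl3 are in 0 of the 20. The neighbourhood of CUL9 holds both Rpl41 and Rps4l among 17 measured genes, of which 13 were higher and 4 lower, for which the authors' deposited table gives p = 0.000656 and q = 0.324. In the other 5, Eef1g was 1 of 17 lower among 56 measured genes (IL2RG), 1 of 19 among 65 (JAK3) and 1 of 26 among 74 (EGF), while Rpl41 and Rps4l were among 26 higher of 36 (KLRG2) and 28 higher of 41 (SIK3). The authors' deposited table gives 0 neighbourhoods with a q under 0.05. Of all 831 listed transcripts, 460 were higher and 371 lower. The members were listed for the same contrast, so nothing is read from the counts in their neighbourhoods. Rps4l entered them under the human symbol RPS4Y2, which the authors' deposited table pairs with it.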
